A study of Danio rerio with 12 samples.

Results

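Whole zebrafish larvae exposed to GW3965, a synthetic agonist of the liver X receptor (LXR), are described here against larvae kept in the vehicle DMSO. The members are the 4 arrays titled GW3965 and the 4 arrays titled DMSO, 8 of the 12 arrays of the series, with the processed signal of each array divided by its own 75th percentile over all probes that are not controls. All larvae were wild type of the WIK strain, kept in pools of 30 in 3 mL of embryo medium from day 4 to day 6 after fertilization, with the treatment renewed after 24 h. The GW3965 wells held 1 mM agonist as labelled, the T0901317 wells 2 mM of a second LXR agonist as labelled, and every well, vehicle included, held 0.1% DMSO. A micro sign may have been lost from the labelled doses. Each group had 4 arrays, called biological quadruplicates in the design text, and the study left out T0901317 replicate 2, so 3 T0901317 arrays entered the fit beside the 8 arrays compared. RNA came from whole larvae, so every value is an average over all tissues, and fewer cells of a type cannot be told apart from less RNA per cell.

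LXR is a nuclear receptor that binds DNA together with the retinoid X receptor and is switched on by oxysterols, the oxidised forms of cholesterol. In vertebrate liver, gut and macrophages its activation is known to raise genes for cholesterol export, for conversion of cholesterol to bile acids and for fatty acid synthesis and desaturation. Cholesterol synthesis itself is governed mainly by a separate set of factors, the sterol regulatory element binding proteins (SREBPs), which act when membrane sterol is low.

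The 75th percentile lay between 330 and 375 intensity units on the GW3965 arrays, against 330 and 388 on the DMSO arrays. Signal was well above background for 78.8% to 82.0% of probes on the GW3965 arrays and for 82.1% to 83.2% on the DMSO arrays, so a somewhat smaller share of probes was detected in every GW3965 array. The 4 GW3965 arrays share slide 3 and scan 3 of the file headers, and the 4 DMSO arrays share slide 1 and scan 1. Slide, scan and treatment therefore cannot be told apart in any value below. Scaled signals are given with 1 standing for the 75th percentile of the array, and they are not compared between genes, because each probe has its own response.

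Of 23592 genes tested, 1343 differed between GW3965 and DMSO larvae at an adjusted p under 0.05, which is 5.69% (limma, Benjamini-Hochberg adjustment over all genes). Genes higher with GW3965 numbered 291 (1.23%), and genes lower numbered 1052 (4.46%). At least 2-fold changes were 52 rises and 232 falls among them. The 4 GW3965 and 4 DMSO values did not overlap for 3421 genes, 14.5% of those tested, and the median log2 fold change over all genes was 0.01. Among the 1343 called genes, 1320 did not overlap. Some genes named below come from the 20 largest rises and 20 largest falls. Those were chosen among genes without overlap, so their separation is no added evidence, and not all of them are named. Among called genes above the median signal, 216 were higher and 355 lower, whereas among called genes at or below it 75 were higher and 697 lower. Features without a gene symbol gave 115 rises and 658 falls, and genes with a symbol gave 176 rises and 394 falls, 4.72% of 12079. Of the 1343 calls, 364 held under all 20 alternative ways of processing at the same threshold, 100 of them higher and 264 lower. With any 1 of GW3965 replicates 1 to 4 or DMSO replicates 2 or 3 left out, between 164 and 188 genes were called higher, and without GW3965 replicate 2, 3 or 4 or DMSO replicate 3 between 641 and 695 were called lower.

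**Figure D1:**
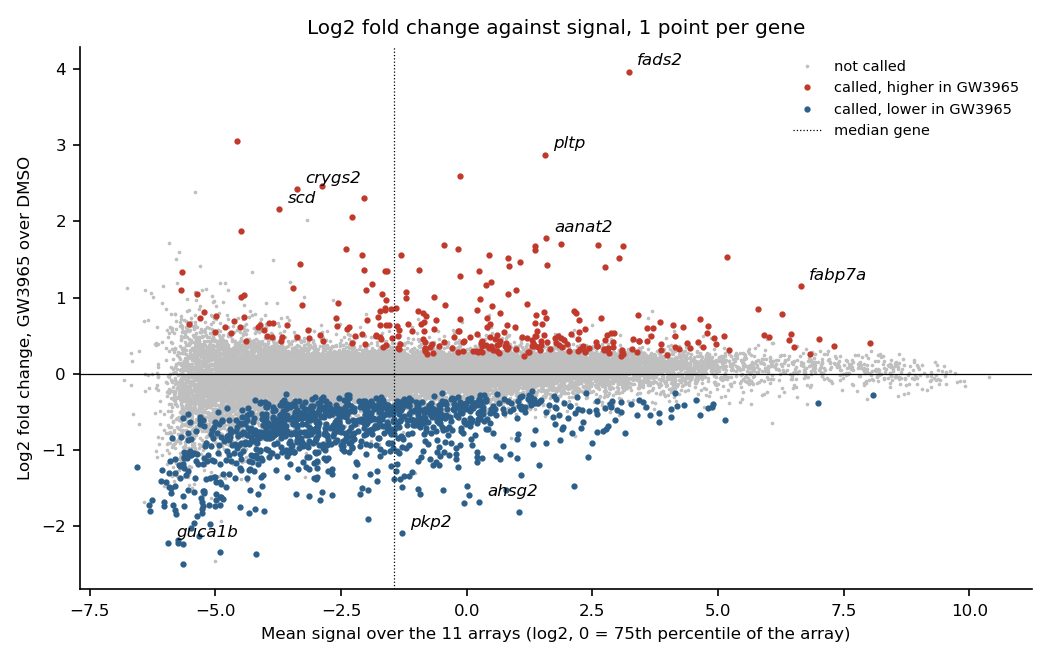
Log2 fold change of GW3965 over DMSO larvae against the mean log2 signal over the 11 arrays, 1 point per gene; red points are called higher, blue points called lower, and the dotted line marks the median signal. Called falls crowd the dim side, where 697 genes at or below the median signal were lower and 75 higher, and the largest rise, fads2, lies on the bright side.

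Many genes are read by more than 1 probe and entered the counts above through the brightest of them. Of the called rises with a further probe among those tested, 108 genes, all further probes had the same sign in 80.6%, and another probe was itself called in 36.1%. Of the 189 called falls with a further probe, the shares were 62.4% and 18%. Over all 6886 genes with further probes they were 53.4% and 4.27%. Among uncalled genes all further probes had the same sign in 48.7% of those above 0 and 59.3% of those below 0. For the rises of at least 2-fold the further probes had a median log2 fold change of 1.299 where the brightest probe had 1.49 (10 genes). The corresponding falls had a median of -0.11 on the further probes, where the brightest probe had -1.235 (24 genes). These are descriptions, and no test was run between the shares.

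The largest rise was that of fads2, the fatty acid desaturase that makes highly unsaturated fatty acids. Its scaled signal was 26.5, 21.9, 21.9 and 28.7 with GW3965, against 1.59, 1.45, 1.65 and 1.62 with DMSO, a 15.6-fold difference. The log2 fold change was 3.965 with a standard error (SE) of 0.105 (adjusted p = 2.32e-08), and below every log2 fold change is followed by ± its SE. All 6 further probes of fads2 were higher as well, at log2 fold changes of 1.84 to 3.95. Next came pltp, which encodes the plasma phospholipid transfer protein, with 4.79, 4.85, 5.48 and 8.01 in GW3965 larvae, against 0.766, 0.778, 0.702 and 0.836 in DMSO larvae (log2 fold change 2.88 ± 0.18, adjusted p = 1.94e-05), and its further probe gave 2.925. In neither gene did any GW3965 array come near the DMSO range.

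Enzymes that desaturate, elongate and activate fatty acids rose, while other members of the same families did not pass the test. The stearoyl-CoA desaturase gene scd read 0.108, 0.125, 0.119 and 0.125 with GW3965, against 0.0259, 0.0168, 0.0287 and 0.0404 with DMSO (log2 fold change 2.16 ± 0.21, adjusted p = 0.000332). It was well above background on 4 of 4 GW3965 and 3 of 4 DMSO arrays. Normexp background correction, whose added offset shrinks changes of dim probes, put it at 0.604. Its further probes gave 1.96 and 2.495. For elovl2, an elongase of polyunsaturated fatty acids, the readings were 4.18, 3.08, 3.43 and 3.785 in GW3965 larvae, against 1.29, 1.09, 1.285 and 1.03 in DMSO larvae (log2 fold change 1.62 ± 0.12, adjusted p = 6.32e-05). The acyl-CoA synthetase acsl4a, which activates long-chain fatty acids, had 9.33, 9.06, 9.42 and 10.04 with GW3965, against 3.76, 3.82, 3.07 and 3.76 with DMSO (log2 fold change 1.397 ± 0.085, adjusted p = 1.94e-05). Every GW3965 array exceeded every DMSO array in these 3 genes. The 27 measured genes of fatty acid synthesis, elongation and desaturation held 7 rises and 1 fall, with a median log2 fold change of 0.10 against 0.01 over all genes. The share called was 29.6%, beside 5.69% over all genes. Smaller rises were those of acsl1b (log2 fold change 0.54 ± 0.10, adjusted p = 0.0114), another acyl-CoA synthetase, and of hsd17b12a (log2 fold change 0.45 ± 0.08, adjusted p = 0.0075), a reductase of the elongation cycle. The paralogue scdb, at -0.09 ± 0.12, and the elongases elovl5 and elovl6, at -0.15 ± 0.08 and -0.195 ± 0.10, did not pass the test. Citrate carrier slc25a1a had log2 fold change 0.36 ± 0.09, adjusted p = 0.0368, a call that ended without any 1 of GW3965 replicates 1 to 3 or DMSO replicates 1 to 3 (adjusted p up to 0.0993). The single fall of this list was elovl8a (log2 fold change -0.50 ± 0.11, adjusted p = 0.0221). Its call ended without GW3965 replicate 3 or 4 or DMSO replicate 2, 3 or 4 (adjusted p up to 0.0648). The list did not hold fasn2, which was among the largest falls described below.

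**Figure D2:**
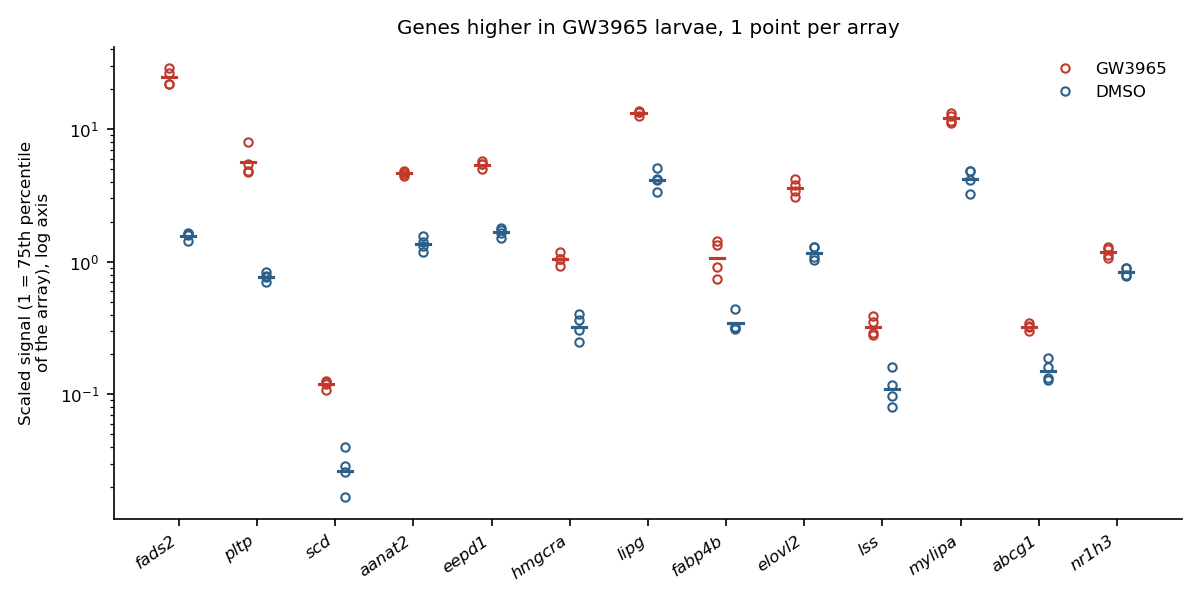
Scaled signal of 13 genes higher in GW3965 larvae on a log axis, 1 circle per array, GW3965 in red at the left and DMSO in blue at the right of each gene; bars are geometric means of 4 arrays. The 2 groups do not overlap in any of the 13 genes, from fads2 (21.9 to 28.7 against 1.45 to 1.65) to nr1h3 (1.06 to 1.29 against 0.778 to 0.896).

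Genes known in mammals as direct LXR targets were mostly higher with GW3965. Of 18 measured targets, 10 were called higher and 1 lower, with a median log2 fold change of 0.50. This is 61.1% called, beside 5.69% over all genes. The list was assembled with results of these data known and is no independent evidence. The receptor gene itself, nr1h3, read 1.06, 1.29, 1.12 and 1.24 in GW3965 larvae, against 0.896, 0.7775, 0.794 and 0.896 in DMSO larvae (log2 fold change 0.49 ± 0.09, adjusted p = 0.00853). Sterol export was represented by abcg1, a transporter that moves cholesterol out of cells, at 0.3197, 0.348, 0.326 and 0.303 with GW3965, against 0.129, 0.187, 0.134 and 0.1602 with DMSO (log2 fold change 1.101 ± 0.11, adjusted p = 0.000501; 0.69 with normexp), with further probes at 1.38 and 1.42. The related abca1b, at 0.47 ± 0.15 and adjusted p = 0.109, and abcg4b, at -0.08 ± 0.11, did not pass. eepd1, which promotes cholesterol efflux in mammalian macrophages, had 5.45, 5.01, 5.72 and 5.44 in GW3965 larvae, against 1.805, 1.74, 1.503 and 1.635 in DMSO larvae (log2 fold change 1.697 ± 0.08, adjusted p = 3.32e-06). mylipa, the ubiquitin ligase that directs the low-density lipoprotein receptor to degradation in mammals, had 12.5, 11.45, 11.2 and 13.2 with GW3965, against 4.16, 4.803, 3.215 and 4.82 with DMSO (log2 fold change 1.52 ± 0.13, adjusted p = 0.000159). The groups were apart in each of these 4 genes.

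srebf1, which encodes the SREBP that drives fatty acid genes, read 0.325, 0.349, 0.2905 and 0.295 in GW3965 larvae, against 0.244, 0.178, 0.177 and 0.212 in DMSO larvae (log2 fold change 0.64 ± 0.125, adjusted p = 0.0136), and its further probe gave 1.77. cyp7a1, the rate-limiting enzyme of bile acid synthesis, read 2.74, 2.33, 2.59 and 2.32 with GW3965, against 1.46, 1.19, 1.155 and 0.896 with DMSO (log2 fold change 1.102 ± 0.22, adjusted p = 0.0148). It was the only called gene of the 10 measured for bile acid synthesis, transport and sensing, or 10%, beside 5.69% over all genes. The further probe of cyp7a1, at 0.69, was not called. The lowest GW3965 value stood above the highest DMSO value in both genes. Cholesteryl ester transfer protein, cetp, had log2 fold change 0.41 ± 0.10, adjusted p = 0.0413, and its call ended without any 1 of the GW3965 arrays or without DMSO replicate 3 or 4 (adjusted p up to 0.112). The partners of LXR were not called: of 8 measured retinoid X receptor and coregulator genes 0 passed in limma, and their log2 fold changes ran from -0.13 to 0.28. Lipoprotein lipase lpla, at 0.635 ± 0.19, and the small GTPase genes arl4ca and arl4cb, at 0.05 ± 0.09 and 0.075 ± 0.10, did not pass either.

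The enzymes that make cholesterol were higher along much of the path. In the mevalonate arm, 5 of 10 measured genes rose and 0 fell (median log2 fold change 0.29), and between squalene and cholesterol 7 of 12 rose and 0 fell (median 0.74). The shares called were 50% and 58.3%, beside 5.69% over all genes. hmgcra, HMG-CoA reductase and the main control point, had 1.18, 1.04, 0.936 and 1.05 in GW3965 larvae, against 0.305, 0.249, 0.402 and 0.3615 in DMSO larvae (log2 fold change 1.69 ± 0.14, adjusted p = 0.00012). Its further probe gave 1.02. mvda, mevalonate diphosphate decarboxylase, had 0.846, 0.7565, 0.902 and 0.6599 with GW3965, against 0.372, 0.368, 0.443 and 0.383 with DMSO (log2 fold change 1.01 ± 0.105, adjusted p = 0.000501), with further probes at 0.91 and 0.07. These 2 enzymes separated the groups without overlap, while hmgcs1, hmgcrb and idi1 did not pass the test at 0.25 ± 0.09, 0.28 ± 0.145 and -0.02 ± 0.10. Of the side branches, pdss1, which makes the ubiquinone side chain, was at 0.04 ± 0.08, and dhdds, of dolichol synthesis, had the lowest value of the arm at -0.46 ± 0.13 (adjusted p = 0.0688), neither called. mvk (log2 fold change 0.52 ± 0.12, adjusted p = 0.0335), acat2 (log2 fold change 0.44 ± 0.10, adjusted p = 0.0343) and fdps (log2 fold change 0.29 ± 0.07, adjusted p = 0.0367) rose less. Their calls depended on single arrays. mvk lost its call without GW3965 replicate 1, 3 or 4 or DMSO replicate 1 or 2, and acat2 did so without GW3965 replicate 1, 2 or 3 or DMSO replicate 1 or 2. For fdps these were GW3965 replicate 1, 2 or 3 and DMSO replicate 1, 2 or 4. Adjusted p without these arrays reached 0.103.

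After squalene, the epoxidase sqlea had 0.141, 0.127, 0.138 and 0.121 in GW3965 larvae, against 0.0467, 0.03397, 0.0623 and 0.0561 in DMSO larvae (log2 fold change 1.44 ± 0.17, adjusted p = 0.000843). Lanosterol synthase, lss, had 0.387, 0.2815, 0.349 and 0.291 with GW3965, against 0.1185, 0.0802, 0.1601 and 0.0975 with DMSO (log2 fold change 1.555 ± 0.19, adjusted p = 0.00118). Both probes are dim, and normexp gave 0.43 and 0.75 for them, still called. Removal of the methyl groups was represented by msmo1, the methylsterol monooxygenase, at 2.42, 2.14, 2.21 and 1.75 in GW3965 larvae, against 1.18, 0.901, 0.995 and 1.03 in DMSO larvae (log2 fold change 1.05 ± 0.125, adjusted p = 0.000953), by hsd17b7 (log2 fold change 0.65 ± 0.13, adjusted p = 0.0161) and by cyp51. In cyp51 the groups overlapped, at 0.422, 0.249, 0.399 and 0.397 with GW3965, against 0.2097, 0.153, 0.273 and 0.1755 with DMSO (log2 fold change 0.86 ± 0.20, adjusted p = 0.0305). Its call ended without GW3965 replicate 1, 3 or 4 or DMSO replicate 1, 2 or 4 (adjusted p up to 0.0864). Its further probes gave 1.33, 0.51 and 1.14. The late steps described here were the isomerase ebp (log2 fold change 0.83 ± 0.13, adjusted p = 0.00431), with further probes at 0.85 and 0.93, and the desaturase sc5d, which had 1.61, 1.31, 1.44 and 1.29 in GW3965 larvae, against 0.77, 0.642, 0.803 and 0.6405 in DMSO larvae (log2 fold change 0.99 ± 0.10, adjusted p = 0.000503). The other 5 genes of the arm, fdft1, tm7sf2, lbr, nsdhl and dhcr7, did not pass, with log2 fold changes from -0.36 to 0.35.

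**Figure D3:**
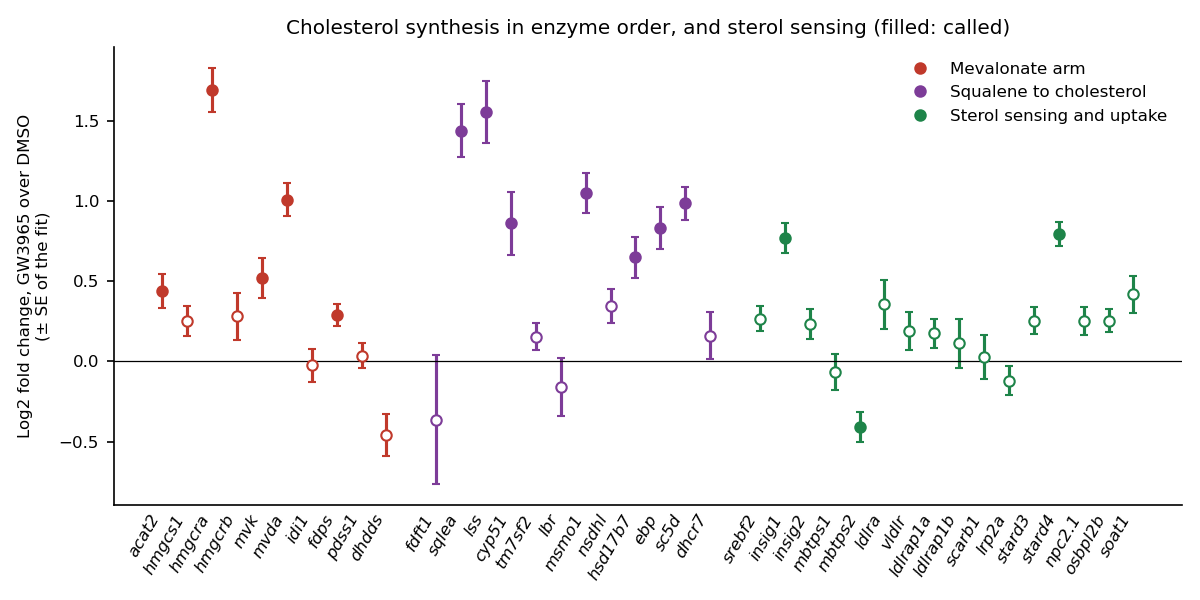
Log2 fold change of GW3965 over DMSO larvae with its SE for the measured genes of cholesterol synthesis in enzyme order, with the side branches pdss1 and dhdds, and for sterol sensing, uptake and trafficking; filled points are called at an adjusted p under 0.05. The highest points are hmgcra at 1.69, lss at 1.56 and sqlea at 1.44, idi1, dhdds, fdft1, lbr, mbtps1 and lrp2a lie below 0 without a call, and mbtps2 at -0.41 is the called gene below 0.

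Among 16 genes of sterol sensing, uptake and trafficking 2 rose and 1 fell, so 18.8% were called, beside 5.69% over all genes. insig1, which holds SREBPs in the endoplasmic reticulum when sterol is plentiful, had 2.93, 3.26, 2.84 and 3.16 with GW3965, against 1.68, 1.91, 1.604 and 1.97 with DMSO (log2 fold change 0.77 ± 0.09, adjusted p = 0.00102), and its further probes gave 0.89 and 0.86. stard4, a cytosolic carrier of cholesterol, had 5.45, 5.59, 5.035 and 5.33 in GW3965 larvae, against 3.35, 2.93, 2.82 and 3.27 in DMSO larvae (log2 fold change 0.79 ± 0.075, adjusted p = 0.000302). Both genes were higher on every GW3965 array than on any DMSO array. srebf2, the SREBP that drives cholesterol genes, was at 0.27 ± 0.08 and the receptor ldlra at 0.36 ± 0.15, neither called. The protease gene mbtps2, whose product releases SREBPs, fell by 0.41 on the log2 scale (SE 0.09, adjusted p = 0.0297), a call that ended without GW3965 replicate 2 or 4 or any 1 of the DMSO arrays (adjusted p up to 0.0793).

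Carriers of fatty acids and an endothelial lipase rose, while enzymes that assemble triglyceride were not called. lipg, endothelial lipase, which cleaves phospholipids of lipoproteins, had 12.6, 13.4, 13.7 and 13.55 with GW3965, against 4.204, 4.12, 3.34 and 5.11 with DMSO (log2 fold change 1.68 ± 0.14, adjusted p = 0.000152). Of 11 measured fatty acid binding proteins and carriers, 6 rose and 1 fell. The triglyceride list that holds them had 29% of 31 genes called, beside 5.69% over all genes. fabp4b had 0.739, 1.43, 0.913 and 1.33 in GW3965 larvae, against 0.321, 0.314, 0.439 and 0.311 in DMSO larvae (log2 fold change 1.635 ± 0.21, adjusted p = 0.00151). fabp7a, the brain-type protein expressed in radial glia, had 146, 128, 130.4 and 117 with GW3965, against 49.5, 54.7, 70.35 and 61.97 with DMSO (log2 fold change 1.15 ± 0.11, adjusted p = 0.000341), and its further probes gave 1.16 and 0.975. The lowest GW3965 reading was above the highest DMSO reading in these genes. fabp3 rose by less (log2 fold change 0.45 ± 0.07, adjusted p = 0.00515). The other called members lay close to the threshold and lost the call when single arrays were left out. This was so for fabp4a (0.30 ± 0.07) without any 1 of the GW3965 arrays or DMSO replicate 2 or 4, and for fabp10a (0.40 ± 0.10) without GW3965 replicate 1, 2 or 4 or DMSO replicate 2, 3 or 4. fabp7b (0.32 ± 0.08) lost the call without any 1 of the GW3965 arrays or DMSO replicate 1, 3 or 4, and fabp1a (-0.67 ± 0.17) without GW3965 replicate 1, 3 or 4 or any 1 of the DMSO arrays, with adjusted p up to 0.107. Of the 10 assembly genes 0 were called in limma, with 8 of 10 above 0 and a median of 0.11. Over all genes 12275 of 23592 lay above 0. The lipid droplet gene cidec had log2 fold change 0.76 ± 0.19, adjusted p = 0.0425 and lost the call without any 1 of the GW3965 arrays or DMSO replicate 1, 2 or 3 (adjusted p up to 0.111).

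pcyt1bb, an enzyme of phosphatidylcholine synthesis, had 0.678, 0.564, 0.722 and 0.659 in GW3965 larvae, against 0.261, 0.2303, 0.262 and 0.265 in DMSO larvae (log2 fold change 1.36 ± 0.12, adjusted p = 0.000167), all 4 GW3965 readings above all DMSO readings.

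Apolipoprotein genes went both ways. Of 14 measured, 2 rose and 2 fell, and the median was -0.12. The list that holds them beside lipases and assembly genes had 31.8% of 22 called, beside 5.69% over all genes. The 2 genes for apolipoprotein E, a ligand of lipoprotein receptors, moved apart. apoea read 3.86, 4.26, 3.65 and 4.45 with GW3965, against 7.26, 6.74, 6.81 and 6.99 with DMSO (log2 fold change -0.78 ± 0.08, adjusted p = 0.000398). apoeb, the bright one, read 109.8, 104, 109 and 94.8 in GW3965 larvae, against 76.4, 77.3, 69.2 and 68.8 in DMSO larvae (log2 fold change 0.52 ± 0.08, adjusted p = 0.00526), and 6 of its 7 further probes had the same sign, at 0.255 to 0.52. With the mean over all its probes the call ended (0.36, adjusted p = 0.381). The remaining probe had an SE of 1.53. apoea thus lay lower and apoeb higher on every GW3965 array than on any DMSO array. apoa4a had 3.24, 3.22, 3.23 and 2.996 with GW3965, against 2.125, 2.12, 1.94 and 1.91 with DMSO (log2 fold change 0.65 ± 0.08, adjusted p = 0.00129), with a further probe at 0.48, and apoc4 had 0.133, 0.158, 0.152 and 0.155 in GW3965 larvae, against 0.283, 0.222, 0.257 and 0.217 in DMSO larvae (log2 fold change -0.705 ± 0.11, adjusted p = 0.0041; -0.37 with normexp). apoa1a, apoa2 and apobb.1, structural proteins of the main lipoproteins, were at -0.065 ± 0.13, -0.14 ± 0.10 and -0.26 ± 0.10 and did not pass.

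Fatty acid oxidation showed few calls. Of 32 oxidation genes 0 rose and 2 fell, so 6.25% were called, near the 5.69% over all genes. Below 0 lay 21 of 32, beside 11317 of 23592 over all genes, and the median of the list was -0.11. echs1, the enoyl-CoA hydratase, had 0.8001, 0.647, 0.714 and 0.886 with GW3965, against 1.16, 1.23, 1.44 and 1.13 with DMSO (log2 fold change -0.71 ± 0.13, adjusted p = 0.0107). pdk4, a kinase that restrains the use of glucose, had 0.0756, 0.05996, 0.0735 and 0.1075 in GW3965 larvae, against 0.135, 0.161, 0.125 and 0.147 in DMSO larvae (log2 fold change -0.87 ± 0.155, adjusted p = 0.00868; -0.36 with normexp), and its call ended with the excluded T0901317 array put back (adjusted p = 0.0883). In both genes the GW3965 arrays were all below the DMSO arrays. Among 26 genes of glucose metabolism 3 rose and 2 fell, or 19.2% called. The glycolytic pklr was at 0.48 ± 0.10, with all 4 further probes above 0, and gluconeogenic fbp1b at -0.35 ± 0.07. The first call ended without GW3965 replicate 1, 2 or 4 or DMSO replicate 2 or 4 and the second without GW3965 replicate 1 or 3 (adjusted p up to 0.056). The other calls were pfkfb4b (0.42 ± 0.095), foxo1a (0.39 ± 0.095) and gys1 (-0.74 ± 0.19). Each of them also ended when some single arrays were left out (adjusted p up to 0.132). The call of gys1 further ended with the excluded T0901317 array put back (adjusted p = 0.329). No call of the glucose list held under all 20 alternatives at the same threshold.

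Outside lipid metabolism aanat2 rose, which encodes an enzyme of melatonin synthesis in the pineal gland. It read 4.47, 4.58, 4.85 and 4.76 with GW3965, against 1.19, 1.399, 1.31 and 1.55 with DMSO (log2 fold change 1.78 ± 0.09, adjusted p = 5.89e-06), with no overlap. The labels give no hour of collection. Of 40 clock and pineal genes 2 rose and 3 fell, with a median of 0.07 and 12.5% called, beside 5.69% over all genes. per1a, a repressor of the clock loop, read 3.33, 3.097, 2.53 and 2.82 in GW3965 larvae, against 9.06, 4.71, 5.215 and 6.91 in DMSO larvae (log2 fold change -1.097 ± 0.22, adjusted p = 0.0177), and per3 read 0.371, 0.389, 0.3325 and 0.328 with GW3965, against 0.516, 0.456, 0.487 and 0.536 with DMSO (log2 fold change -0.49 ± 0.10, adjusted p = 0.0162). Both calls ended without GW3965 replicate 3 (adjusted p = 0.0555 and 0.0528). The further probe of per1a gave -0.64 and was not called (adjusted p = 0.0627). The further probe of per3 gave -0.02, and its call also ended with the mean over its probes (-0.255, adjusted p = 0.237). The other calls, nfil3-5 (0.39 ± 0.09) and nr1d1 (-0.55 ± 0.13), ended without some single arrays (adjusted p up to 0.0969). Of this list only the call of aanat2 held under all 20 alternatives at the same threshold. The T0901317 arrays kept by the study read 13.1, 7.18 and 9.83 for per1a, above the GW3965 arrays.

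In the lens list of 44 genes 1 rose and 3 fell, so 9.09% were called, beside 5.69% over all genes. The gamma S crystallins, structural proteins of the lens, did not move as a block. crygs2 had 0.182, 0.148, 0.118 and 0.174 in GW3965 larvae, against 0.0219, 0.0354, 0.0275 and 0.0309 in DMSO larvae (log2 fold change 2.43 ± 0.16, adjusted p = 3.41e-05). It was well above background on 3 of 4 DMSO arrays, and normexp put it at 0.76. crygs3 had 0.363, 0.4485, 0.357 and 0.353 with GW3965, against 0.786, 0.68, 0.9445 and 0.714 with DMSO (log2 fold change -1.03 ± 0.13, adjusted p = 0.00148), on the side opposite to the T0901317 arrays, which read 1.68, 1.39 and 1.90. Both genes separated the groups in full. crygm3 (log2 fold change -0.96 ± 0.20, adjusted p = 0.0181) lost its call without GW3965 replicate 2 or 4 or DMSO replicate 4 (adjusted p up to 0.0517).

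Of 53 genes of phototransduction and the visual cycle 2 rose and 4 fell, so 11.3% were called, beside 5.69% over all genes. All 4 falls were in guanylate cyclase activators, calcium sensors of photoreceptors, and so was 1 of the rises. guca1d had 0.161, 0.105, 0.1085 and 0.0937 in GW3965 larvae, against 0.182, 0.231, 0.251 and 0.219 in DMSO larvae (log2 fold change -0.94 ± 0.18, adjusted p = 0.0116). guca1b was not well above background on any GW3965 array and read 0.0106, 0.007899, 0.0121 and 0.00571 with GW3965, against 0.02701, 0.0318, 0.0456 and 0.0697 with DMSO, at least 1.80-fold lower with GW3965. This bound sets the DMSO mean against the lowest signal that counts as above background, or the gene's own if higher. guca1b passed the filter on dim probes through its 4 DMSO arrays alone, so no p is given for it. With the excluded T0901317 array put back all 4 falls lost their call (adjusted p = 0.0643 for guca1d, 0.0771 for guca1g and 0.175 for guca1ab.1). guca1g (log2 fold change -0.60 ± 0.12) lost its call without DMSO replicate 2 or 3. guca1ab.1 (-0.38 ± 0.08) lost it without GW3965 replicate 1, 3 or 4 or DMSO replicate 1, 3 or 4. Adjusted p without these arrays reached 0.0726. Under normexp guca1ab.1 stood at only -0.077 (adjusted p = 0.612), and averaging its probes gave -0.132 (adjusted p = 0.779). It was not called after quantile normalization (adjusted p = 0.074) or under eBayes with trend and robust (adjusted p = 0.105) either. Its further probe lay above 0, at 0.11 ± 0.38. The rise of guca1aa (log2 fold change 1.04 ± 0.25, adjusted p = 0.0378) ended without GW3965 replicate 1, 2 or 3 or DMSO replicate 1, 2 or 4 (adjusted p up to 0.092). Over the 30 genes of the cascade 5 lay above 0 and the median was -0.20, beside 12275 of 23592 and a median of 0.01 over all genes.

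A fall shared by all tested probes of the gene was that of ahsg2, which encodes a fetuin, a plasma glycoprotein made by the liver. It read 0.547, 0.934, 0.682 and 0.858 in GW3965 larvae, against 2.65, 2.38, 2.25 and 2.28 in DMSO larvae (log2 fold change -1.69 ± 0.15, adjusted p = 0.000267), and its further probes gave -1.685 and -1.785. Every GW3965 value lay below 1 and every DMSO value above 2. Of 26 measured genes for hepatocyte and plasma proteins 1 rose and 4 fell, with a median of -0.11 and 19.2% called, beside 5.69% over all genes. The rise was fabp10a, the liver fatty acid binding protein, whose call depended on single arrays as given above. Of these calls only that of ahsg2 held under all 20 alternatives at the same threshold. f9b (-0.62 ± 0.14, adjusted p = 0.0241) lost its call with normexp (-0.18, adjusted p = 0.186). cp (-0.40 ± 0.09, adjusted p = 0.0269) lost it with the mean over its probes (adjusted p = 0.0664). Both also lost it without some single arrays. The complement and acute phase list had 0 calls of 24 in limma. serpind1, heparin cofactor, fell by 0.36 on the log2 scale (SE 0.07, adjusted p = 0.0109), and its call ended with the mean over its probes (adjusted p = 0.0508).

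Few genes of the gut were called, while the share called was larger in the short neutrophil and macrophage lists. slc6a19a.1, a neutral amino acid transporter of the brush border, had 0.0893, 0.0648, 0.07297 and 0.0651 with GW3965, against 0.198, 0.159, 0.171 and 0.163 with DMSO (log2 fold change -1.25 ± 0.12, adjusted p = 0.000361; -0.495 with normexp), and ada, adenosine deaminase, had 4.52, 3.45, 3.98 and 4.63 in GW3965 larvae, against 7.44, 5.66, 6.22 and 6.415 in DMSO larvae (log2 fold change -0.64 ± 0.11, adjusted p = 0.00721). They were the 2 called among 28 enterocyte genes, and this 7.14% is near the 5.69% called over all genes. Below 0 lay 22 of the 28 (median -0.14), beside 11317 of 23592 over all genes. lyz, lysozyme of neutrophils and macrophages, had 0.369, 0.247, 0.253 and 0.296 with GW3965, against 0.601, 0.567, 0.593 and 0.557 with DMSO (log2 fold change -1.01 ± 0.13, adjusted p = 0.00134). slc7a7, an amino acid transporter that marks macrophages and microglia in zebrafish, had 1.07, 1.22, 1.08 and 1.21 in GW3965 larvae, against 1.74, 1.69, 1.76 and 1.698 in DMSO larvae (log2 fold change -0.59 ± 0.08, adjusted p = 0.00216). Each of these 4 genes was lower on every GW3965 array than on any DMSO array. Of 12 neutrophil genes 0 rose and 2 fell, and of 22 macrophage genes 2 rose and 2 fell, with medians of 0.02 and 0.01. The shares called were 16.7% and 18.2%, beside 5.69% over all genes. The macrophage rises were apoeb, also counted above among LXR targets and apolipoproteins, and havcr1 (log2 fold change 0.42 ± 0.09, adjusted p = 0.0258). The call of havcr1 ended without GW3965 replicate 1, 2 or 4 or DMSO replicate 1 (adjusted p up to 0.0726). In the neutrophil and macrophage lists only the calls of lyz and slc7a7 held under all 20 alternatives at the same threshold.

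In skeletal muscle 4 of 53 genes fell and 0 rose (median -0.03), so 7.55% were called, near the 5.69% over all genes. The slow myosin heavy chain smyhc1 had 15.4, 12.7, 14.55 and 14.7 with GW3965, against 21.5, 19.9, 21.4 and 22.2 with DMSO (log2 fold change -0.57 ± 0.08, adjusted p = 0.00196), with further probes at -0.04 and -0.64, and the myosin binding protein mybpc1 had 0.399, 0.324, 0.446 and 0.3795 in GW3965 larvae, against 0.6395, 0.542, 0.5745 and 0.6502 in DMSO larvae (log2 fold change -0.64 ± 0.11, adjusted p = 0.00738). Both separated the groups. Of 11 heart genes 0 were called and of 44 neuron and synapse genes 0 were called (limma), with medians of -0.03 and 0.06. Among 29 genes of collagen, cartilage and bone, 24 lay below 0 (median -0.08), beside 11317 of 23592 over all genes. The hedgehog ligand of cartilage ihha was the 1 rise (log2 fold change 0.36 ± 0.06, adjusted p = 0.00851). Of this list 6.9% were called, near the 5.69% over all genes.

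**Figure D4:**
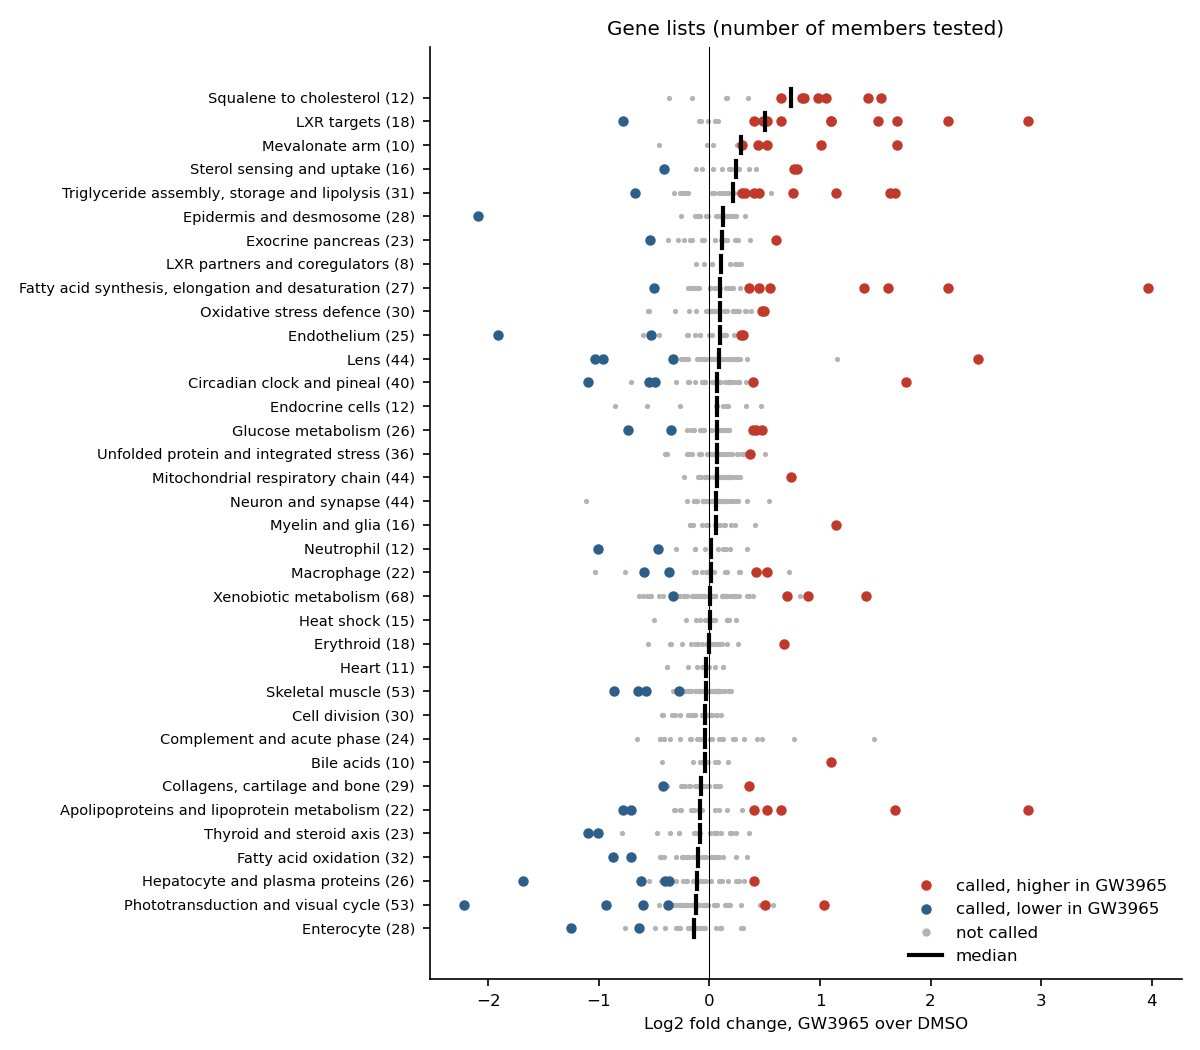
Log2 fold change of GW3965 over DMSO larvae for the measured members of 36 gene lists, ordered by the median (black bar); red and blue points are called higher and lower and grey points are not called. The cholesterol, LXR target and triglyceride lists stand at the top, with sterol sensing between them, at medians from 0.22 to 0.74, and the enterocyte list at the bottom has a median of -0.14.

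Stress and detoxification lists held few calls. Xenobiotic metabolism had 3 rises and 1 fall among 68 genes (median 0.01), or 5.88% called, beside 5.69% over all genes. cyp2x10.2, a cytochrome P450, had 2.85, 2.21, 2.47 and 2.204 with GW3965, against 1.005, 0.898, 0.9525 and 0.778 with DMSO (log2 fold change 1.42 ± 0.17, adjusted p = 0.000953), with a further probe at 1.31, and the sulfotransferase sult2st1 had 5.196, 5.34, 5.801 and 5.67 in GW3965 larvae, against 3.68, 3.35, 3.04 and 3.46 in DMSO larvae (log2 fold change 0.70 ± 0.09, adjusted p = 0.00135). In oxidative stress defence 2 of 30 rose, or 6.67%, among them the metallothionein gene mtbl (log2 fold change 0.495 ± 0.08, adjusted p = 0.00508). The unfolded protein list gave 1 rise of 36, or 2.78%, and heat shock 0 calls of 15 (limma). Of 30 cell division genes 0 were called and 7 lay above 0, with a median of -0.04, beside 12275 of 23592 above 0 over all genes. Under the alternatives the median of this list ran from -0.128 to 0.098, so its sign depended on the processing. cox6a2, a cytochrome c oxidase subunit, was the 1 rise of 44 respiratory chain genes (2.27% called), at 7.45, 7.23, 6.74 and 7.61 with GW3965, against 5.19, 4.07, 3.91 and 4.36 with DMSO (log2 fold change 0.735 ± 0.10, adjusted p = 0.00187).

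The largest falls with a symbol are given from the brightest probe of each gene, and several were not shared by its other probes. pkp2, plakophilin of the desmosome, had 0.175, 0.139, 0.1185 and 0.156 in GW3965 larvae, against 0.735, 0.448, 0.546 and 0.828 in DMSO larvae (log2 fold change -2.09 ± 0.20, adjusted p = 0.000332), but its further probe gave 0.29. angpt2b, an angiopoietin of vessel remodelling, had 0.0953, 0.063, 0.09655 and 0.126 with GW3965, against 0.269, 0.283, 0.427 and 0.444 with DMSO (log2 fold change -1.91 ± 0.23, adjusted p = 0.000936), and no further probe was tested. ftr86 had 0.417, 0.334, 0.385 and 0.4704 in GW3965 larvae, against 1.305, 0.986, 1.26 and 1.696 in DMSO larvae (log2 fold change -1.69 ± 0.16, adjusted p = 0.000282), with further probes at 0.29, 0.39 and -0.16. With the mean over its probes its call ended (adjusted p = 0.228). ehmt2, a histone methyltransferase, had log2 fold change -1.52 ± 0.175, adjusted p = 0.000839 and further probes at 0.02 and 0.30. The assembly factor ndufaf7, at -1.41 ± 0.14, and the small GTPase gene rhoua, at -1.38 ± 0.18, had further probes at 0.45 and 0.33. With the mean over their probes the calls of ehmt2, ndufaf7 and rhoua ended too (adjusted p = 0.0509, 0.0984 and 0.0521). All 6 genes separated the groups on the brightest probe, which the rule that chose them required. Normexp put pkp2 at -1.39 and angpt2b at -1.02. tmem144b and fasn2 were not well above background on any GW3965 array and were at least 1.58-fold and at least 2.67-fold lower. Their further probes had the same sign, at -0.93 and -1.54. The call of tmem144b (adjusted p = 0.000743) ended with normexp (-0.117, adjusted p = 0.465). fasn2 was tested only because of its 4 DMSO arrays and 1 T0901317 array, so no p is given, and its call ended with normexp and with the excluded T0901317 array put back. The uncharacterised si:dkey-239i20.4 (log2 fold change -1.53 ± 0.14, adjusted p = 0.000282) held under all 20 alternatives at the same threshold. Its further probe was called too, at -0.69 (adjusted p = 0.00455). The log2 fold change of T0901317 against DMSO for this gene was above 0, at 0.58 ± 0.15, and was not called. In contrast, the calls of vtg4, fpgs and slc5a3a, dim with GW3965, ended when some single arrays were left out.

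**Figure D5:**
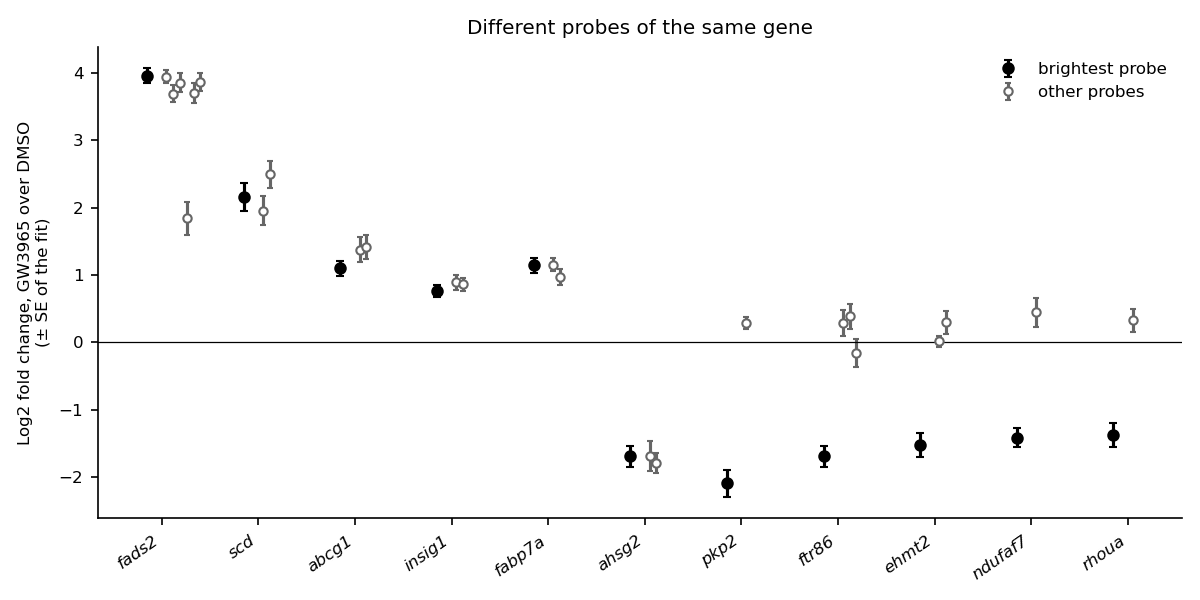
Log2 fold change of GW3965 over DMSO larvae with its SE for the brightest probe (filled) and the other tested probes (open) of 11 genes. Probes lie together for scd, abcg1, insig1, fabp7a and ahsg2 and apart for pkp2, ftr86, ehmt2, ndufaf7 and rhoua, where the brightest probe is at -1.38 to -2.09 and 7 of the 8 others are above 0.

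T0901317 larvae were measured beside the same DMSO arrays at another labelled dose, so their values are set side by side without a comparison. The T0901317 arrays share slide 2 and scan 2, so slide, scan and agonist cannot be told apart here either. For fads2 the arrays read 26.5, 21.9, 21.9 and 28.7 with GW3965, 28.6, 29.9 and 25.1 with T0901317 and 1.59, 1.45, 1.65 and 1.62 with DMSO. For pltp they read 4.79, 4.85, 5.48 and 8.01 with GW3965, 6.29, 6.64 and 9.45 with T0901317 and 0.766, 0.778, 0.702 and 0.836 with DMSO. Both agonists stood above DMSO in these genes, as in lipg, where the readings were 12.6, 13.4, 13.7 and 13.55 with GW3965, 10.4, 12.7 and 15.3 with T0901317 and 4.204, 4.12, 3.34 and 5.11 with DMSO. apoea read 3.86, 4.26, 3.65 and 4.45 with GW3965, 2.26, 2.46 and 2.43 with T0901317 and 7.26, 6.74, 6.81 and 6.99 with DMSO. For pkp2 the readings were 0.175, 0.139, 0.1185 and 0.156 with GW3965, 1.09, 0.758 and 0.963 with T0901317 and 0.735, 0.448, 0.546 and 0.828 with DMSO, and for angpt2b they were 0.0953, 0.063, 0.09655 and 0.126 with GW3965, 0.557, 0.697 and 0.7203 with T0901317 and 0.269, 0.283, 0.427 and 0.444 with DMSO. In those last 2 genes the GW3965 arrays lay below all other arrays and the T0901317 arrays did not. eif2ak2, a kinase that senses double-stranded RNA, showed the same order at 0.0759, 0.0515, 0.0571 and 0.0669 with GW3965, 0.2102, 0.299 and 0.185 with T0901317 and 0.1598, 0.122, 0.187 and 0.192 with DMSO, and so did lingo4a at 0.0615, 0.0481, 0.0611 and 0.0661 with GW3965, 0.256, 0.216 and 0.244 with T0901317 and 0.1525, 0.118, 0.145 and 0.207 with DMSO. ahsg2 read 0.547, 0.934, 0.682 and 0.858 with GW3965, 0.788, 0.953 and 0.9095 with T0901317 and 2.65, 2.38, 2.25 and 2.28 with DMSO, with both agonists below DMSO. Among the 20 largest falls, the log2 fold change of T0901317 against DMSO was below 0 only for guca1b, fasn2, ahsg2 and fpgs. For the rest it was above 0, so a T0901317 value above DMSO was not particular to the genes shown.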

How the data were processed

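Samples were grouped per the labels. Per the file headers, the authors ran Agilent Feature Extraction 11.0.1.1 on each scan. The deposited values are linear intensities after background subtraction, not yet scaled between arrays. Spots of 1 probe were averaged without flagged outliers, which gave 43603 probes, and probes with a missing value on any array stayed out of the fit. RefSeq accessions named 25069 probes of 12858 genes; 18534 probes kept their identifier. Each array was divided by its 75th percentile and taken to log2. A probe was tested if well above background on at least 3 of 11 arrays, and the brightest probe stood for its gene. Under R 4.3.3, limma 3.58.1 fitted a mean for each of the 3 groups (8 residual degrees of freedom), and a gene was called at a Benjamini-Hochberg adjusted p under 0.05. The labels do not say whether pools came from separate spawnings, so p-values measure the spread between these arrays. Gene names in the text came from the 20 largest rises and 20 largest falls that do not overlap, all called members of the lipid lists, and up to 6 called members of other lists. Values of uncalled list members are given to show where a pathway was not called, and the members, lists and rule were chosen with earlier results of these data known. Alternatives comprised normexp (offset 50), 2 other normalizations, 2 other filters, 2 other probe rules, other sets of arrays, a replicate block, eBayes with trend and robust, array weights, an adjusted p under 0.01 and each array left out in turn. On simulated data with changes of 1 on the log2 scale, 72 of 100 changed genes were called, and of 0.5, 30 of 100. Each of these runs had 4 false calls. They changed 100 of 23645 genes, a smaller share than the 1343 of 23592 called in the data. The share found in the simulation therefore need not hold for this fit. The number of arrays limits the precision.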

Additional observations from a re-analysis of the deposited data

Results flagged for a closer look

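Among the 198 groups of 4 arrays examined for the genes named, 11 held 1 array whose scaled signal stood far from the other 3, and chance alone flags about 1 in 20 such groups. fabp4b read 0.439 on DMSO replicate 3, against 0.311 to 0.321 on the other DMSO arrays. acsl4a read 3.07 on DMSO replicate 3, with the others at 3.76 to 3.82. For pcyt1bb DMSO replicate 2 read 0.230 and the others 0.261 to 0.265. cyp51 read 0.249 on GW3965 replicate 2, below the other GW3965 arrays at 0.397 to 0.422. elovl8a read 0.644 on DMSO replicate 1, with the others at 0.805 to 0.839. For apoa4a GW3965 replicate 4 read 2.996 and the others 3.22 to 3.24. serpind1 read 7.42 on DMSO replicate 2, with the others at 6.76 to 6.86. crygs3 read 0.4485 on GW3965 replicate 2, with the others at 0.353 to 0.363. Genes of the last section gave 3 more: ch25hl1.1 read 2.775 on GW3965 replicate 1 (others 3.11 to 3.165), lrit1b 0.331 on DMSO replicate 3 (others 0.248 to 0.260) and pi4kab 27.02 on GW3965 replicate 1 (others 25.2 to 25.4). The 11 arrays are spread over 6 of the 8 arrays compared.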

How the results depend on the processing

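The counts of genes called were 291 higher and 1052 lower, with 52 and 232 of them at least 2-fold. Normexp gave 700 lower, and 26 higher and 18 lower at least 2-fold; its added offset shrinks changes of dim probes by construction. Quantile normalization gave 152 lower at least 2-fold, and the filter on all 11 arrays, which tests fewer genes, 113. Testing every probe gave 85 higher at least 2-fold. Putting the excluded T0901317 array back gave 159 higher and 525 lower, with 150 lower at least 2-fold, and array weights gave 518 higher; the cause was not tested. An adjusted p under 0.01 gave 99 higher, 401 lower and 141 lower at least 2-fold. Leaving out each array in turn gave 164 to 294 higher and 641 to 841 lower, and 47 to 53 higher and 169 to 235 lower at least 2-fold. No called gene named here changed sign under the alternatives run. The uncalled genes named here were not followed. The complement and acute phase list, with 0 calls, had up to 1 rise and up to 1 fall in an alternative. The heart, heat shock, and neuron and synapse lists had up to 1 fall, and the LXR partner and cell division lists stayed at 0. Deviations from the group means correlated between same-numbered GW3965 and DMSO arrays at r of 0.167, 0.044, 0.158 and 0.382 for numbers 1 to 4, so 3 of 4 lay over 0.1 where pairing was taken to need all 4, and the arrays were not treated as paired; as a hint from the data, each GW3965 array correlated best with the DMSO array of its number. A fit with the replicate block called 355 higher and 1245 lower. Of the called genes named here it ended the calls of cetp, fabp10a and guca1aa (adjusted p = 0.0639, 0.0557 and 0.0641). The slide block could not be fitted, because each slide holds 1 group. Dim probes limit the falls: 91 called genes were not well above background on any GW3965 array and 8 on any DMSO array.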

Other observations

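Called genes outside the pathway lists included further enzymes of lipid building blocks, named here after their values were seen. sptlc2b, a subunit of serine palmitoyltransferase, which starts sphingolipid synthesis, had 1.54, 1.54, 1.71 and 1.68 with GW3965, against 0.912, 0.951, 0.978 and 1.055 with DMSO (log2 fold change 0.73 ± 0.08, adjusted p = 0.000501), and its paralogue sptlc2a was called too (log2 fold change 0.39 ± 0.06, adjusted p = 0.00514). The pantothenate kinases pank1b and pank1a, the first enzymes of coenzyme A synthesis, were both higher. pank1b had 1.92, 1.92, 2.03 and 1.95 in GW3965 larvae, against 1.27, 1.36, 1.25 and 1.18 in DMSO larvae (log2 fold change 0.63 ± 0.07, adjusted p = 0.00051) and pank1a 1.03, 0.982, 0.828 and 1.03 with GW3965, against 0.653, 0.689, 0.609 and 0.668 with DMSO (log2 fold change 0.56 ± 0.09, adjusted p = 0.00508). ch25hl1.1, named as a relative of cholesterol 25-hydroxylase, had log2 fold change 0.66 ± 0.11, adjusted p = 0.00528. All of these calls held under the 20 alternative settings at the same threshold, and in each gene the GW3965 arrays lay above the DMSO arrays.

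Outside the lists, 5 rises and 8 falls with a symbol held under the 20 settings and had at least 2 further probes, all of the same sign. The rises were the uncharacterised si:dkey-286h2.3 (log2 fold change 1.56 ± 0.17, adjusted p = 0.000592), sptlc2b, pank1b, the annexin gene anxa3b (0.51 ± 0.08) and ndrg1a (0.34 ± 0.07). The falls included adm2a, an adrenomedullin peptide gene, at 0.0569, 0.0679, 0.0474 and 0.05603 in GW3965 larvae, against 0.148, 0.104, 0.125 and 0.158 in DMSO larvae (log2 fold change -1.22 ± 0.17, adjusted p = 0.00247; -0.38 with normexp). pkmyt1, a kinase that restrains entry into mitosis, had 0.3125, 0.323, 0.308 and 0.357 with GW3965, against 0.547, 0.516, 0.631 and 0.733 with DMSO (log2 fold change -0.89 ± 0.14, adjusted p = 0.00431), with further probes at -0.01, -0.91 and -0.84. palm3 had 2.755, 2.66, 2.58 and 2.83 in GW3965 larvae, against 4.12, 4.51, 4.198 and 4.19 in DMSO larvae (log2 fold change -0.65 ± 0.08, adjusted p = 0.000901), with further probes at -0.295, -0.24 and -0.17. The other falls were shq1 (-1.09 ± 0.17), whose further probes were close to 0 at -0.04 and -0.17, svopl (-0.79 ± 0.12), lrit1b (-0.73 ± 0.14), ankrd12 (-0.50 ± 0.09) and pi4kab (-0.44 ± 0.07).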
